A study of Oryza sativa with 12 samples.

Results

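Polysome-bound mRNA of rice leaves was compared between plants of the cultivar IR64 under 50% drought and IR64 control plants. The libraries were chosen by their labels, which name IR64 and either drought or control, and they are 6 of the 12 in the series, 3 drought and 3 control. The series title calls IR64 the susceptible variety, and the other 6 libraries are from APO, the tolerant one. All were made from leaf, from polysomal RNA extracted with TRIzol, and the molecule is labelled polyA RNA. Polysomes are mRNAs that carry several ribosomes, so their RNA is enriched for messages being translated. Plant age, the length of the drought and the time of day of sampling are not given in the sources used here. The design text speaks of triplicate runs of each sample and leaves it unsaid whether separate plants were sampled for them, so the p-values measure only the spread between libraries, which may be technical. In RNA of a whole leaf, fewer cells of a type and less RNA per cell cannot be told apart, and without total RNA, which was not used here, more mRNA and more ribosomes on the same mRNA cannot be told apart either.

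Plants that lose water make abscisic acid, a hormone whose synthesis is limited by 9-cis-epoxycarotenoid dioxygenase (NCED). Abscisic acid bound to its PYL receptors holds back clade A protein phosphatases (PP2C), which frees SnRK2 kinases (SAPK in rice) to activate bZIP factors. Among their known targets are the genes for dehydrins and other late embryogenesis abundant (LEA) proteins, protectants of membranes and proteins in drying cells, and genes of osmolyte synthesis such as that of proline. Leaves also make the mobile flowering signal of rice, HD3A, whose gene is under the control of day length and the circadian clock.

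Values are in TPM, a share of all transcripts after correction for their length, rescaled here to sum to 1000000 over the 37849 nuclear gene loci of each library. The rescaling matters because ribosomal RNA took 66.99 ± 16.28% of the deposited TPM in drought and 6.46 ± 8.53% in control (mean ± SD, n = 3 each). Nuclear loci held 12.3 to 38.6% in drought libraries and 59.9 to 83.3% in control libraries. Read counts were not used here, so depth is known only as a relative index, the coverage of a gene divided by its FPKM. The index ran from 0.608 to 2.36 in drought and from 2.84 to 7.34 in control, and 15357 to 23864 loci lay above 0 in drought libraries against 26937 to 30698 in control libraries. Drought 3 was the shallowest library, with 84.9% rRNA. These differences go with the groups, and their part in the results was not tested.

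The 12 markers of leaf mesophyll, mostly for Rubisco and proteins of the photosystems, summed to 24010, 19460 and 11701 TPM in drought 1, 2 and 3, and to 74611, 91958 and 21487 TPM in control 1, 2 and 3. The Rubisco activase gene OsRcaII alone gave 42486 and 56335 TPM of the sum in control 1 and control 2. RbcS1 was low in all 6 libraries (0 to 3.64 TPM in drought and 1.84 to 7.39 TPM in control), and CabE had 5.02 to 25.1 TPM in drought and 8.90 to 89.2 TPM in control. Markers of other organs were low. Of 39 seed storage genes 24 were at 0 in all 6 libraries, and their sum was 5.47 to 14.1 TPM in drought and 7.34 to 11 TPM in control. The 7 root markers summed to 26.2 to 40.0 TPM in drought and 49 to 97.5 TPM in control, with 3 of them below 1 in all 6 libraries. The 9 shoot meristem markers summed to 8.06 to 17.7 TPM in drought and 6.62 to 12.8 TPM in control. The 4 guard cell markers summed to 0 to 16.4 TPM in drought and 17.8 to 59.2 TPM in control, and KAT1 was at 0 in all 6.

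The 3 control libraries were not alike. Over the genes tested, control 1 and control 2 had a Spearman correlation of 0.963, while control 3 stood at 0.835 with control 1 and 0.83 with control 2. Control 3 was nearer to drought 1 (0.899) and drought 2 (0.877) than to either of its own group, and drought 3 was the least like the others (0.754 to 0.806 with control 3, drought 1 and drought 2). These correlations are across genes and are a description. For each gene, control 3 is therefore said to agree where it lay nearer to the mean of controls 1 and 2 than to the drought mean on the scale of log2(TPM + 1). By that measure it agreed for 9315 of 22812 genes tested (40.8%). It lay over 2 log2 units below controls 1 and 2 without agreeing in 756 genes, and over 2 units above them in 1558.

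Genes were tested with limma, a linear model across all genes, on log2(TPM + 1), with 4 APO libraries in the same fit to share the estimate of the spread, and a gene was called at an adjusted p under 0.05. Differences below are drought minus control on that scale, with the standard error (SE), n = 3 libraries each. Drought raised 255 genes (1.12% of those tested) and lowered 70 (0.307%), together 325 (1.42%), out of 4194 at an unadjusted p under 0.05. The rises were between 1.48 and 6.76 log2 units, with a median of 2.87. The median of the falls was -3.21, and the median of all genes was 0.16. Called or not, 12844 of the 22812 genes tested were higher in drought, and 2293 of 19206 in deposited TPM. In every called gene the 3 drought libraries lay all above or all below the 3 control libraries, a pattern that 2685 genes (11.8%) showed above and 1875 (8.22%) showed below. The split of rises and falls depended on the scaling: 220 rose and 1033 fell in deposited TPM, 30 and 69 of them among the calls above, 57 rose and 47 fell with median-of-ratios scaling, and 144 rose and 73 fell after quantile normalization. Control 3 agreed in 235 of the 255 rises (92.2%) and in 60 of the 70 falls (85.7%). A gene in which it does not agree has a large spread and is less readily called, so these shares partly follow from the test.

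The calls rest on the shared spread. Fitted with the 6 IR64 libraries alone, the same differences gave 2 rises and 1 fall, and with all 12 libraries of the series 1 of each was called. The genes called with 6 libraries were OsDSSR1 (Os09g0109600; 4.65 ± 0.44), DIP3 (Os05g0247100; 3.62 ± 0.36) and the asparaginase gene OsASNase2, at adjusted p = 0.022, 0.0494 and 0.022 in that fit. OsDSSR1 and DIP3 are named here because they passed it, after their values were seen. OsDSSR1 stood at 197, 171 and 357 TPM in drought and at 9.8, 6.38 and 8.59 TPM in control, and control 3 agreed. DIP3 stood at 213, 271 and 245 TPM in drought and at 25.9, 20.3 and 12.5 TPM in control, and control 3 agreed again. With 1 library of either cultivar left out at a time the rises numbered 41 to 2861 and the falls 5 to 1051, and 30 rises and 5 falls were called in each of the 6 fits that lacked an IR64 library. They included OsDSSR1, DIP3 and, of the genes described below, Rab16A, RAB16B, RAB21 (Os11g0454000 and Os11g0453900), OsLEA3, OsLEA16, SAPK4 and EFA27. Lower in drought, they included HD3A, OsASNase2, OsCYP76M7 and OSRR2.

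LEA and dehydrin genes made many of the largest rises. Of 31 members of the list 28 were tested and 23 were higher in drought, against 12844 of 22812 over all genes. Of the 28, 14 rose and 0 fell, where 1.12% of all genes rose. The members had a median of 2.17 against 0.16 over all genes. Their summed level was 7682, 9018 and 16019 TPM in drought and 2197, 1566 and 1557 TPM in control. The median stayed above 0 under each other scaling of the libraries (1.79 to 2.45). There 11 members rose in deposited TPM, 7 with median-of-ratios scaling and 13 after quantile normalization.

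Rab16A (Os11g0454300, chromosome 11, 15342877 to 15343671, coordinates as in the deposited tables), a dehydrin, was the most abundant of them in drought. It stood at 3049, 3273 and 5654 TPM in drought 1, 2 and 3, and at 215, 16.7 and 10.6 TPM in control 1, 2 and 3. The groups were far apart, control 1 was the highest control, and control 3 agreed (6.76 ± 0.89, adjusted p = 0.0107). RAB16B (Os11g0454200, chromosome 11, 15336192 to 15337158), its neighbour, had 526, 473 and 1048 TPM in drought and 44.5, 6.58 and 3.77 TPM in control (5.76 ± 0.72, adjusted p = 0.00857). RAB21 (Os11g0454000, chromosome 11, 15327769 to 15328657), in the same cluster, had 58.1, 43.7 and 59.8 TPM in drought and 3.63, 0.502 and 1.51 TPM in control (4.39 ± 0.56, adjusted p = 0.00949). In both, control 3 agreed. A second locus with the symbol RAB21 (Os11g0453900), named after its values were seen, rose as well, with control 3 in agreement. The genes of this cluster are close relatives and may share reads, so their separate levels are uncertain.

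Other LEA genes had a like layout. OsLEA3-1 (Os05g0542500, chromosome 5, 26927607 to 26928882) had 770, 1033 and 1917 TPM in drought and 95.0, 33 and 6.66 TPM in control (5.30 ± 0.75, adjusted p = 0.0127). OsLEA3 (Os06g0324400, chromosome 6, 12665605 to 12666203) had 96.6, 161 and 248 TPM in drought and 9.56, 0.135 and 0 TPM in control (6.11 ± 0.79, adjusted p = 0.00949). OsLEA16 (Os03g0168100) had 62.0, 96.2 and 179 TPM in drought and 6.17, 1.20 and 1.00 TPM in control (5.03 ± 0.60, adjusted p = 0.00737). Drought 3 was the highest library and control 1 the highest control in these 3 genes, and control 3 agreed in each. OsLEA25 (5.65 ± 0.79), OsLEA1 (5.30 ± 0.82) and OsLEA33 (5.24 ± 0.77) rose as well, with control 3 in agreement in all 3.

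Control 1 was the control with the most LEA mRNA. It was the highest control in 13 of the 14 LEA genes that rose, and in 146 of all 255 rises (57.3%), against 19.0% of all genes tested. Control 3, the highest control in 64.7% of all genes, was the highest in 38% of the rises. For the 14 LEA genes the median difference of drought was 4.53 from controls 1 and 2 and 5.93 from control 3, so that control 3 lay at least as far from drought in them as the other controls. Some abundant members were not called, and these are named after their values were seen. OsLEA24 had 1310, 1812 and 4307 TPM in drought and 1158, 931 and 709 TPM in control, and control 3 agreed (1.25 ± 0.55, adjusted p = 0.262). OsLEA9 had 202, 294 and 439 TPM in drought and 421, 443 and 167 TPM in control, where the groups overlapped and control 3 did not agree (-0.09 ± 0.54, adjusted p = 0.953).

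**Figure D1:**
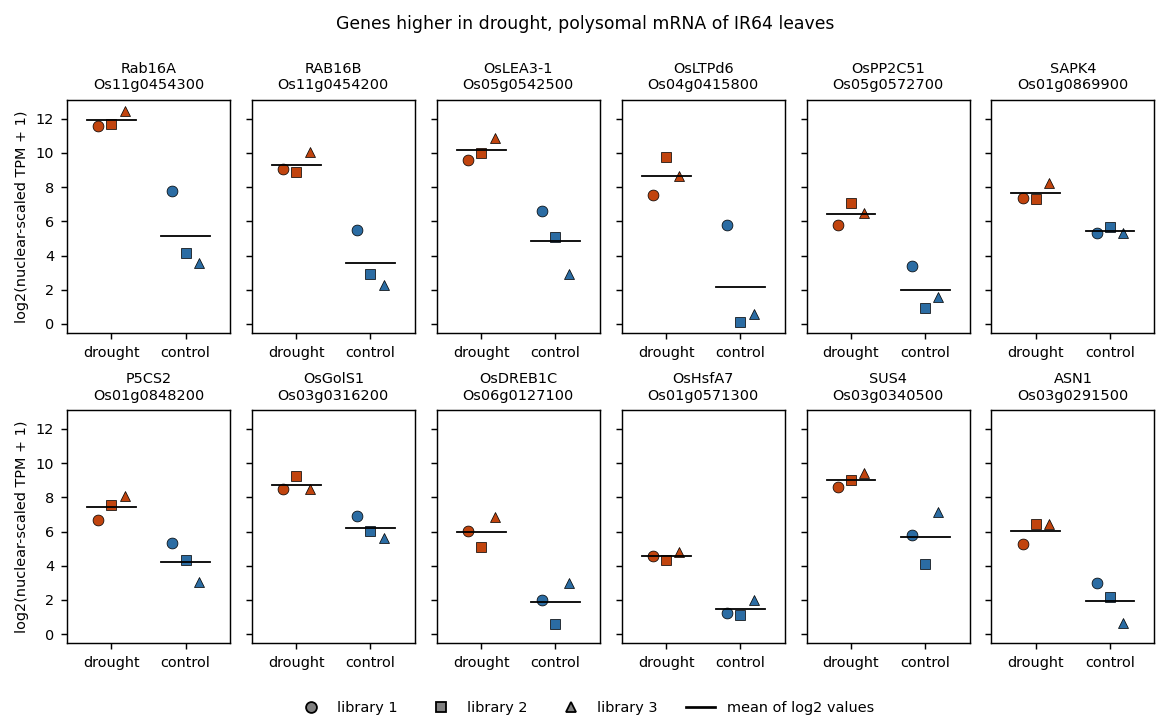
Level of 12 genes called higher in drought in each IR64 library, as log2(nuclear-scaled TPM + 1), drought on the left and control on the right of each panel; the symbol gives the library number and the line the mean of the 3 log2 values. No control library reaches a drought library in any panel, and control 1 is the highest control for the 3 LEA genes Rab16A, RAB16B and OsLEA3-1.

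Lipid transfer proteins, small secreted proteins that carry lipids to the cuticle and cell wall, also included some of the largest rises, the second and the third of genes with a symbol. OsLTPd6 (Os04g0415800, chromosome 4, 20543471 to 20543934) had 187, 852 and 402 TPM in drought and 53.8, 0.066 and 0.504 TPM in control (6.49 ± 1.25, adjusted p = 0.034). OsLTP2.5 (Os05g0550600, chromosome 5, 27345715 to 27346293) had 158, 529 and 556 TPM in drought and 39.5, 0.282 and 1.33 TPM in control (6.19 ± 1.05, adjusted p = 0.0223). In both, control 1 stood well above the other controls and control 3 agreed. OsLTPd5 (3.83 ± 0.66), OsLTPd8 (2.52 ± 0.44) and OsLTPG13 (2.22 ± 0.38) rose with control 3 in agreement. Of 49 genes of lipid transfer and cuticle tested, 6 rose and 0 fell, where 1.12% of all genes rose. But the list median was only 0.04, and -0.57 to -0.12 under the other scalings, so that the rises were those of a few members. In deposited TPM 2 members rose, with median-of-ratios scaling 0 and after quantile normalization 3, and 0 fell in each. OsEnS-58 (Os03g0826900), whose role is not known, had 498, 635 and 562 TPM in drought and 48.5, 1.69 and 13.4 TPM in control (5.50 ± 0.82). OsUCL16 (Os06g0218600), a uclacyanin of the copper-binding phytocyanin family, had 36.6, 322 and 94.7 TPM in drought and 15.7, 0.192 and 0.479 TPM in control (5.09 ± 1.07, adjusted p = 0.0462). Neither gene had control 3 apart from the other controls by the measure used.

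Abscisic acid signalling genes were higher in drought in 21 of 27 cases, against 12844 of 22812 over all genes. Of the 27, 6 rose and 0 fell. The list median was 1.03, and it was -0.38 in deposited TPM and 0.51 to 0.62 under the other scalings. The 6 are 2 kinases and 4 clade A phosphatases, and with median-of-ratios scaling 0 of the list were called (limma, 11 at an unadjusted p under 0.05). SAPK4 (Os01g0869900, chromosome 1, 37710241 to 37714835), a SnRK2 kinase, had 167, 157 and 298 TPM in drought and 39.6, 50.4 and 38.2 TPM in control (2.20 ± 0.32, adjusted p = 0.0136). The 3 controls were close together and control 3 agreed. SAPK6 had 134, 210 and 364 TPM in drought and 31.0, 21.4 and 66.8 TPM in control (2.58 ± 0.47, adjusted p = 0.0281), with control 3 the highest control but still in agreement. The phosphatase OsPP2C51 (Os05g0572700, chromosome 5, 28523815 to 28526025) had 53.2, 134 and 88.4 TPM in drought and 9.63, 0.927 and 1.95 TPM in control (4.47 ± 0.66, adjusted p = 0.0137). OsPP2C49 had 44.7, 84.3 and 67.0 TPM in drought and 11.3, 4.56 and 6.25 TPM in control (3.02 ± 0.58, adjusted p = 0.034). For both phosphatases control 3 agreed.

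The remaining calls of the list were OsPP2C50 (1.85 ± 0.38), in which control 3 agreed, and OsPP2C30 (2.34 ± 0.45), in which it did not. The phosphatase genes PP2C1 (Os09g0325700) and OsPP2C59 (Os06g0698300) rose too, with control 3 in agreement. They were removed from the list by symbol, so its count of phosphatases called depends on that choice. OsPP2C30 had 335, 478 and 414 TPM in drought and 73.4, 40.5 and 167 TPM in control. Some kinases were high in control 3 and were not called. SAPK9 had 247, 172 and 173 TPM in drought and 10.5, 2.93 and 303 TPM in control, so control 3 was the highest of the 6 libraries and the groups overlapped. None of the 5 receptor genes tested was called, and their differences were between -2.88 (OsPYL/RCAR3) and 1.05 (OsPYL/RCAR5). BZIP23, a factor of the pathway, had 153, 167 and 168 TPM in drought and 78.0, 78.0 and 51.6 TPM in control (1.25 ± 0.29, adjusted p = 0.07). PP2C1, OsPP2C59, SAPK9, the receptors and BZIP23 are named after their values were seen.

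Of the hormone's synthesis and breakdown genes 14 were tested, 1 rose and 1 fell, and both carry the symbol OsNCED1. OsNCED1 at Os02g0704000 (chromosome 2, 29026099 to 29028176) had 163, 78.4 and 30.5 TPM in drought and 1820, 1624 and 415 TPM in control. It fell (-3.85 ± 0.66, adjusted p = 0.0223), and control 3, the lowest control, agreed. OsNCED1 at Os03g0645900 (chromosome 3, 24959201 to 24961260) had 127, 200 and 118 TPM in drought and 37, 16.2 and 32.5 TPM in control (2.37 ± 0.43, adjusted p = 0.028), and control 3 agreed. OSNCED3 (Os07g0154100) had 38.6, 184 and 194 TPM in drought and 18.2, 2.78 and 17.2 TPM in control. Its groups did not overlap and control 3 agreed, but it did not pass (3.36 ± 0.73, adjusted p = 0.0528). OsNCED2 (Os12g0617400) had 3.94, 7.66 and 5.27 TPM in drought and 9.68, 13 and 2.25 TPM in control, with control 3 not in agreement (-0.29 ± 0.59, adjusted p = 0.838). A second locus with the symbol OsNCED2 (Os12g0435200) reached 0.042 TPM in control 2, was at 0 in the others and was not tested, and control 3 did not agree there by the measure used. The summed NCED mRNA of leaf was thus mostly that of the Os02g0704000 locus in control libraries. The list median was 0.08 and lay below 0 under the other scalings (-1.10 to -0.18).

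Genes of proline synthesis and of its breakdown were called. Both genes of the first step of synthesis rose. OsP5CS (Os05g0455500, chromosome 5, 22374029 to 22380820) had 269, 229 and 310 TPM in drought and 63.4, 73.6 and 39.3 TPM in control (2.21 ± 0.33, adjusted p = 0.0143). P5CS2 (Os01g0848200, chromosome 1, 36430978 to 36440843) had 99.7, 190 and 273 TPM in drought and 39.4, 19.4 and 7.23 TPM in control (3.20 ± 0.55, adjusted p = 0.0223). Proline dehydrogenase, OsProDH (Os10g0550900, chromosome 10, 21618211 to 21620554), which degrades proline, had 5.21, 2.94 and 0 TPM in drought and 79.6, 67.6 and 19.7 TPM in control (-4.06 ± 0.71, adjusted p = 0.0243). All 3 genes had control 3 in agreement. OsGolS1 (Os03g0316200), a galactinol synthase of the raffinose pathway, had 364, 601 and 359 TPM in drought and 119, 64.8 and 48.5 TPM in control (2.56 ± 0.44, adjusted p = 0.0234), and control 3 agreed. OsP5CR, the enzyme of the next step of proline synthesis, had 31.4, 28.5 and 30.4 TPM in drought and 8.89, 7.95 and 33.1 TPM in control, and was not called (1.1 ± 0.49, adjusted p = 0.264), with control 3 at the drought level and not in agreement. It is named after its values were seen. In all, 10 genes of proline, trehalose and raffinose metabolism were tested, 3 rose and 1 fell, with a median of 0.47 that was -0.34 in deposited TPM. The calls depended on the scaling: 0 rose and 1 fell both in deposited TPM and with median-of-ratios scaling. After quantile normalization 1 rose and 1 fell. Of the 6 fits that lacked an IR64 library, OsP5CS was called in 4, P5CS2 and OsGolS1 in 3 and OsProDH in 2.

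Asparagine metabolism showed a like pair. ASN1 (Os03g0291500, chromosome 3, 10120289 to 10124384), an asparagine synthetase, had 36.9, 84.9 and 85.3 TPM in drought and 6.82, 3.50 and 0.542 TPM in control (4.11 ± 0.58, adjusted p = 0.0128). OsASNase2 (Os04g0650700, chromosome 4, 33161539 to 33164512), an asparaginase, had 60.8, 41.1 and 43.9 TPM in drought and 1058, 873 and 786 TPM in control. The groups lay far apart, with control 3 the lowest control (-4.20 ± 0.45, adjusted p = 0.00737). Here too control 3 agreed in the pair.

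Genes of sugar transport and sucrose breakdown rose in 4 of 38 cases tested and fell in 0, where 1.12% of all genes tested rose. The list median was 0.35 and lay below 0 under the other scalings (-0.98 to -0.01). The sucrose synthase SUS4 (Os03g0340500) was the most abundant of the 4, with 389, 526 and 674 TPM in drought and 53.8, 16.4 and 138 TPM in control (3.34 ± 0.61, adjusted p = 0.0279). Control 3 was the highest control and did not agree. SUS1 (Os03g0401300) had 26.5, 79.8 and 59.9 TPM in drought and 6.48, 1.77 and 4.90 TPM in control (3.37 ± 0.59, adjusted p = 0.0243). The sugar exporters OsSWEET15 (3.20 ± 0.56) and OsSWEET6a (3.55 ± 0.67) rose too, and control 3 agreed in SUS1 and in both exporters. In deposited TPM 0 of the list rose and 4 fell, and after quantile normalization 1 rose. With median-of-ratios scaling 0 were called (limma, 15 at an unadjusted p under 0.05). Of the 6 fits that lacked an IR64 library, SUS1 and OsSWEET15 were called in 3, and SUS4 and OsSWEET6a in 2.

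The next lists, of regulators and protective proteins, had 1 or 2 calls each, where 1.12% of all genes tested rose. Of 75 ERF and DREB factors 2 rose, with a list median of 0.73 that was -0.52 in deposited TPM. OsDREB1C (Os06g0127100, chromosome 6, 1434770 to 1435533), of the DREB family of dehydration and cold factors, had 63.4, 33.3 and 114 TPM in drought and 3.05, 0.483 and 6.96 TPM in control (4.13 ± 0.66, adjusted p = 0.0175). OsERF#052 had 54.7, 55.6 and 78.7 TPM in drought and 15.8, 9.73 and 22.0 TPM in control (1.97 ± 0.38, adjusted p = 0.0336). Of 57 NAC factors 2 rose, ONAC007 (4.02 ± 0.75) and ONAC129 (3.99 ± 0.78). In all 4 factors control 3 agreed.

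Of 134 heat shock proteins and factors 2 rose and 0 fell, where 1.12% of all genes tested rose. In this list 75 were higher, and 12 of 127 in deposited TPM, near the shares over all genes (12844 of 22812 and 2293 of 19206). OsHsfA7 (Os01g0571300), a heat shock factor, had 22.6, 18.8 and 26.9 TPM in drought and 1.38, 1.14 and 3.01 TPM in control (3.11 ± 0.44, adjusted p = 0.0127). HSP70 (Os03g0277300), a chaperone, had 69.0, 92.7 and 116 TPM in drought and 25.3, 13.3 and 6.80 TPM in control (2.68 ± 0.44, adjusted p = 0.0202). Both had control 3 in agreement. Of 28 antioxidant enzymes 1 rose, the superoxide dismutase OsSOD4 (Os08g0561700), with 621, 638 and 563 TPM in drought and 141, 111 and 277 TPM in control (1.89 ± 0.36, adjusted p = 0.0334), where control 3 did not agree. Of 42 pathogenesis-related genes 1 rose, the chitinase Cht4(t)*(Chi4) (2.79 ± 0.45), in which control 3 agreed.

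Further genes with a known part in water or salt stress were called, and these are named after their values were seen. LIP9, a dehydrin, had 913, 1270 and 2130 TPM in drought and 208, 148 and 272 TPM in control (2.73 ± 0.41, adjusted p = 0.0145). The galactinol synthase wsi76 had 124, 329 and 386 TPM in drought and 24.9, 3.97 and 13.4 TPM in control (4.35 ± 0.60, adjusted p = 0.0127). BZIP12, an abscisic acid response factor, had 120, 70.9 and 112 TPM in drought and 13.1, 7.89 and 24.3 TPM in control (2.76 ± 0.41, adjusted p = 0.0136). These 3 had control 3 in agreement. The chaperone gene ClpD1 (2.59 ± 0.47), the vacuolar sodium/proton exchanger NHX1 (2.16 ± 0.35), RD22 (2.46 ± 0.43) and the caleosin EFA27 (3.88 ± 0.46) rose with control 3 in agreement. OsOAT, an ornithine aminotransferase (2.18 ± 0.45), and OsLti6b, a small membrane protein (2.5 ± 0.52), rose without it.

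**Figure D2:**
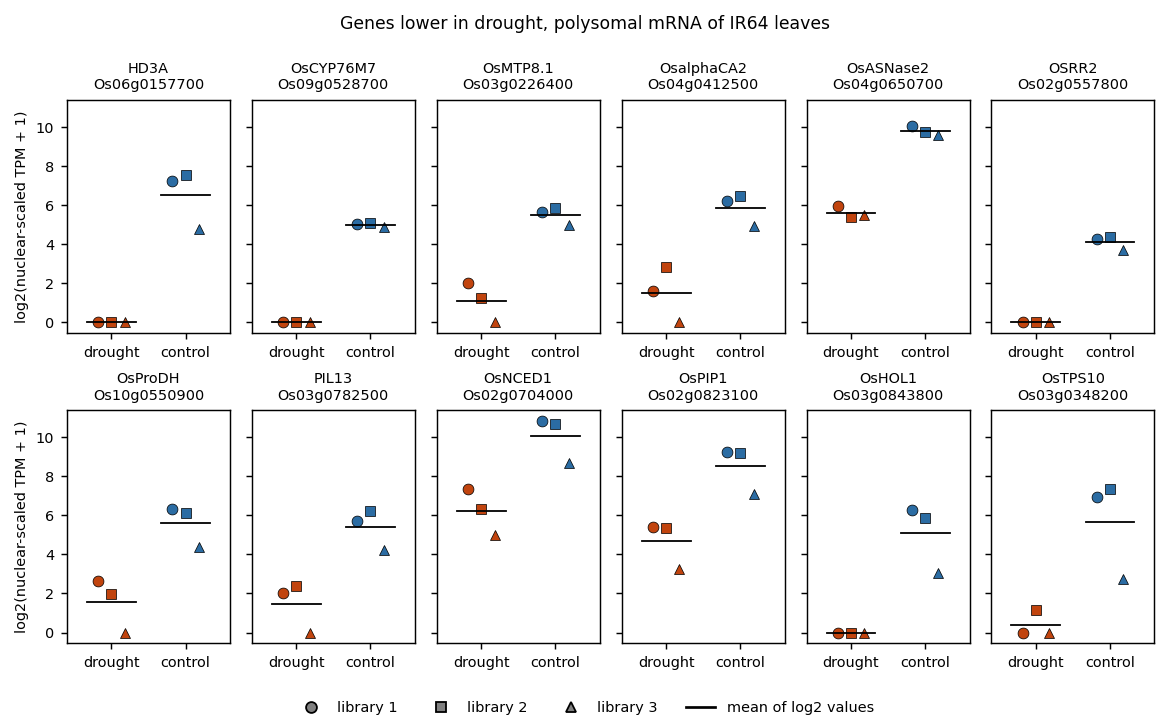
Level of 12 genes called lower in drought in each IR64 library, as log2(nuclear-scaled TPM + 1), drought on the left and control on the right; symbols give the library number and lines the mean of the log2 values. HD3A, OsCYP76M7, OSRR2 and OsHOL1 are at 0 in all 3 drought libraries, and control 3 is the lowest control in each panel.

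Many genes that fell were listed at 0 in drought. Of the 70, 44 were at 0 in at least 1 IR64 library and 19 were at 0 in the whole drought group, where no fold change is given. Zeros were common in other genes too: of all 22812 genes tested, 13446 were above 0 in all 6 IR64 libraries. The share of all genes at 0 in the whole drought group is not given here. Control 3 was the lowest control in 54 of the 70 (77.1%), against 20.8% of all genes. A low level in a shallow library can be listed as 0, and the drought libraries were the shallower ones, so the counts were repeated over the genes above 0 in all 6 libraries, a setting added after the data were seen. There 357 genes rose and 39 fell, 246 and 26 of them among the calls above. The p-values were those of the same fit, adjusted again over 13446 genes. A gene at 0 in any drought library is left out by this rule, so the counts cannot show how depth bears on the falls.

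HD3A (Os06g0157700, chromosome 6, 2940004 to 2942452), the florigen made in leaves, was at 0 in all 3 drought libraries and at 150, 184 and 26.9 TPM in control 1, 2 and 3. Control 3 was the lowest control and agreed (adjusted p = 0.00737). Of the 17 florigen genes and leaf regulators tested HD3A was the only one called. Among upstream genes, GHD7 was at 0 in drought and at 3.97, 4.24 and 1.68 TPM in control, and MADS14, which acts after the florigen, had 103, 176 and 143 TPM in drought and 279, 344 and 141 TPM in control. Neither was called, control 3 agreed in GHD7 and not in MADS14, and both are named after their values were seen.

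Other falls spanned several functions. OsCYP76M7 (Os09g0528700, chromosome 9, 20691369 to 20693116), a cytochrome P450 of diterpene phytoalexin synthesis, was at 0 in drought and at 31.4, 32.4 and 28.7 TPM in control (adjusted p = 0.00672). The type A response regulator OSRR2 (Os02g0557800), of cytokinin signalling, was at 0 in drought and at 18.1, 19.7 and 12.1 TPM in control (adjusted p = 0.00737). In both the 3 controls were close and control 3 agreed. OsHOL1 (Os03g0843800), a methyl halide transferase, was at 0 in drought and at 77.8, 58.1 and 7.15 TPM in control (adjusted p = 0.0202), and OsTPS10 (Os03g0348200), a symbol used both for trehalose phosphate and for terpene synthases, had 0, 1.22 and 0 TPM in drought and 121, 165 and 5.69 TPM in control (-5.30 ± 1.08, adjusted p = 0.0417). In these last ones control 3 did not agree. OsMTP8.1 (Os03g0226400), a manganese transporter, had 2.99, 1.36 and 0 TPM in drought and 49.3, 57.6 and 30.4 TPM in control (-4.42 ± 0.65, adjusted p = 0.0136). OsalphaCA2 (Os04g0412500), an alpha carbonic anhydrase, had 2.08, 6.23 and 0 TPM in drought and 73.6, 88.2 and 29.0 TPM in control (-4.38 ± 0.77, adjusted p = 0.0243). PIL13 (Os03g0782500), a basic helix-loop-helix factor of the phytochrome-interacting type, had 3.03, 4.24 and 0 TPM in drought and 51.5, 74.2 and 17.6 TPM in control (-3.92 ± 0.77, adjusted p = 0.0356). As a group these 3 had control 3 in agreement.

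Further falls, named after their values were seen, were in transport and in strigolactone signalling. The silicon transporter LSI6 had 6.11, 7.30 and 13.6 TPM in drought and 119, 118 and 22.4 TPM in control (-2.87 ± 0.60), where control 3 did not agree. D53, a repressor of strigolactone signalling, had 21.9, 25.9 and 21.9 TPM in drought and 125, 133 and 69.4 TPM in control (-2.13 ± 0.38), and D53-like fell by 1.77 ± 0.37. D53 and D53-like had control 3 in agreement.

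Water channels (aquaporins) had a list median of -0.98, below 0 under each other scaling (-1.93 to -0.78), with 1 fall and 1 rise. Of 24 members 17 were lower and 7 higher in drought, against 12844 of 22812 higher over all genes. OsPIP1 at Os02g0823100 (chromosome 2, 35349673 to 35351221) had 40.8, 40.2 and 8.48 TPM in drought and 610, 577 and 134 TPM in control (-3.84 ± 0.67, adjusted p = 0.0243). OsPIP2 at Os04g0233400 (chromosome 4, 8948360 to 8949943) had 84.7, 106 and 95.8 TPM in drought and 18.3, 12.2 and 20.9 TPM in control (2.44 ± 0.34, adjusted p = 0.0127). In both control 3 agreed. For most of the family it did not, as for most genes: it agreed in 7 of the 24, against 40.8% of all genes tested. OsPIP2a (Os07g0448800), named after its values were seen, had 30.5, 89.5 and 93.8 TPM in drought and 501, 438 and 23.2 TPM in control, so that control 3 was the lowest of the 6 libraries. Without control 3, 11 aquaporins fell and 2 rose, where 4.64% of all genes fell and 12.6% rose.

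Nitrogen genes had a like layout, with 1 rise (ASN1) and 1 fall among 34 tested and a list median of -0.43 (-1.44 to -0.59 under the other scalings). The fall was that of a gene with the symbol Amt (Os04g0623800), at 257, 167 and 147 TPM in drought and 1295, 1608 and 404 TPM in control (-2.35 ± 0.49, adjusted p = 0.0438), where control 3 did not agree. The nitrate reductase OsNR1, named after its values were seen, had 14.3, 4.75 and 0 TPM in drought and 484, 515 and 4.43 TPM in control (-4.64 ± 1.55, adjusted p = 0.164), and control 3 lay inside the drought range. Without control 3, 9 nitrogen genes fell and 3 rose, where 4.64% of all genes fell and 12.6% rose.

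**Figure D3:**
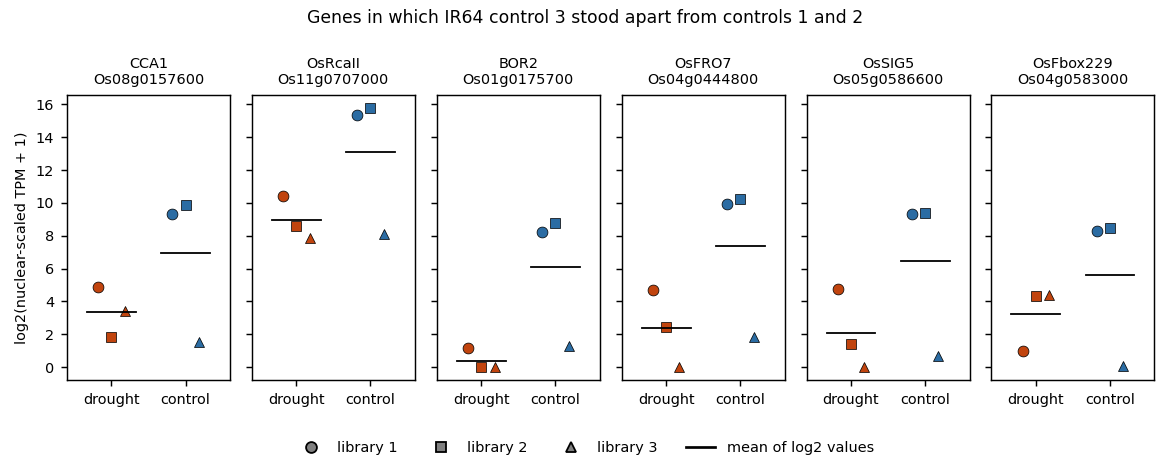
Level of 6 genes in which control 3 lies apart from control 1 and control 2, as log2(nuclear-scaled TPM + 1), in each IR64 library, drought on the left and control on the right; symbols give the library number and lines the mean of the log2 values. In OsRcaII, OsFRO7 and OsSIG5 control 3 lies inside the drought range, in CCA1 just below it, in BOR2 just above it, and in OsFbox229 below it.

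The genes that separated control 3 from controls 1 and 2 included some of the largest differences of controls 1 and 2 from drought. CCA1 (Os08g0157600, chromosome 8, 3360865 to 3373395), a morning gene of the circadian clock, had 28.2, 2.60 and 9.74 TPM in drought and 636, 953 and 1.91 TPM in control. Control 3 was the lowest of the 6 libraries and did not agree, and CCA1 was not called (-3.54 ± 1.77, adjusted p = 0.317). OsRcaII (Os11g0707000, chromosome 11, 28932977 to 28936031) had 1395, 384 and 230 TPM in drought and 42486, 56335 and 278 TPM in control (-4.13 ± 1.65, adjusted p = 0.219). Control 3 lay inside the drought range. Of the boron transporter loci named BOR2, Os01g0175700 had 1.25, 0 and 0 TPM in drought and 297, 432 and 1.43 TPM in control (-5.70 ± 1.57, adjusted p = 0.111), and its neighbour Os01g0175600 was at 0 in drought and at 46.5, 58.3 and 0.214 TPM in control (adjusted p = 0.14). Control 3 did not agree in either.

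In the genes with the largest gaps between the controls, control 3 again lay far below controls 1 and 2. In OsFbox229 and OSINV3 it lay below every drought library as well. OsSIG5, a sigma factor of plastid transcription, had 26.0, 1.64 and 0 TPM in drought and 652, 679 and 0.576 TPM in control (-4.42 ± 2.02, adjusted p = 0.275). OsFRO7, a ferric reductase, had 24.6, 4.31 and 0 TPM in drought and 974, 1226 and 2.63 TPM in control (-4.99 ± 1.91, adjusted p = 0.203). OsFbox229 had 0.97, 19.4 and 19.9 TPM in drought and 310, 349 and 0.0422 TPM in control (-2.36 ± 1.88, adjusted p = 0.542). The vacuolar invertase OSINV3 had 177, 48.6 and 9.28 TPM in drought and 399, 457 and 0.539 TPM in control (-0.55 ± 1.86, adjusted p = 0.91), a difference whose sign depended on the libraries kept. These 4 genes were chosen for the gap, so control 3 agreed in none of them, and they say nothing of how common it is.

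The clock list as a whole had 1 call among 15 genes, LHY (Os04g0583900), with 13.8, 16.0 and 40.6 TPM in drought and 3.09, 1.49 and 4.88 TPM in control (2.48 ± 0.52, adjusted p = 0.0462), in which control 3 agreed. The list median was 0.45, and -1.08 in deposited TPM and -0.10 with median-of-ratios scaling. Genes of the evening, named after their values were seen, were high in drought and in control 3. OsPCL1 had 339, 598 and 482 TPM in drought and 28.7, 1.17 and 454 TPM in control. OsELF3.2 had 72, 82.2 and 118 TPM in drought and 8.53, 6.05 and 70.0 TPM in control, and GI had 1152, 1171 and 1363 TPM in drought and 409, 452 and 895 TPM in control. None of these 3 was called, and control 3 agreed in none of them. The time of day at which each library was sampled is not given in the sources used here, and its part in these values was not tested.

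Without control 3, with the lone pair of controls, 2861 genes rose (12.6% of genes tested in both fits) and 1051 fell, 1050 of them tested in both fits (4.64%). All 255 rises and 69 of the 70 falls were among these. CCA1 (-6.23), OsRcaII (-6.62) and both BOR2 loci passed there, at adjusted p from 0.00033 to 0.0007. Over all genes tested the median difference of drought was 0.33 from controls 1 and 2 and -0.15 from control 3. In the 255 rises it was 2.99 and 2.65, and in the 70 falls -3.39 and -2.58. The genes were called on all 3 controls, so these medians follow in part from the choice.

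**Figure D4:**
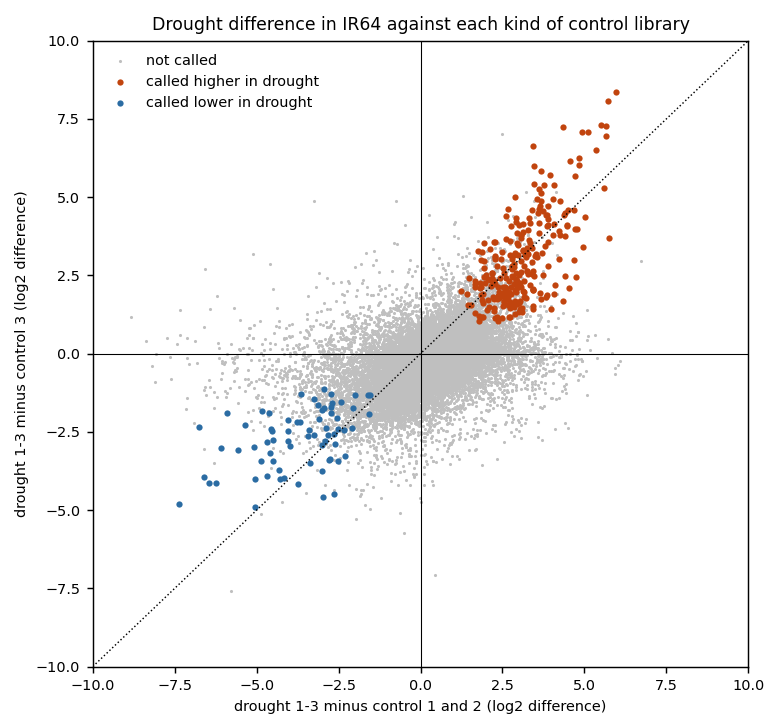
Difference of the mean of the 3 drought libraries from control 1 and 2 (x axis) and from control 3 (y axis) for each gene tested, in units of log2(nuclear-scaled TPM + 1); coloured points are the 255 genes called higher and the 70 called lower, and the dotted line marks equal differences. The called genes lie in the upper right and lower left corners, while a band of uncalled genes along the horizontal axis has a large difference from controls 1 and 2 and a small one from control 3.

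Photosynthesis lists had 0 or 1 call each, where 1.42% of all genes tested were called. Over all genes 12844 of 22812 were higher in drought, and 4194 stood at an unadjusted p under 0.05 (limma). Of 29 genes of the light reactions 0 were called (limma, 6 at an unadjusted p under 0.05), with a list median of -0.11 that was -1.58 in deposited TPM, -0.65 with median-of-ratios scaling and 0.04 after quantile normalization. Of 14 genes of Rubisco and the Calvin cycle 11 were lower and 0 fell, with a list median of -1.05 (-2.59 to -1.09 under the other scalings), and 9 stood at an unadjusted p under 0.05. Their summed level was 12653, 7622 and 5750 TPM in drought and 61724, 79346 and 13833 TPM in control, most of the excess of controls 1 and 2 being OsRcaII. The 1 call was a rise, that of a phosphoglycerate kinase, PGK (Os06g0668200), with 245, 306 and 325 TPM in drought and 68.9, 53.8 and 85.6 TPM in control (2.07 ± 0.35, adjusted p = 0.0208), in which control 3 agreed. Photorespiration (15 tested, median -0.28) and chlorophyll metabolism (21 tested, median 0.90, but -0.63 in deposited TPM) had 0 calls, with 4 and 7 genes at an unadjusted p under 0.05. Without control 3, 9 of the 29 light reaction genes fell and 5 rose. Of the 14 Rubisco and Calvin cycle genes 6 fell and 2 rose there, where 4.64% of all genes fell and 12.6% rose.

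Ribosomal protein genes were higher in 67 of 75 cases (12844 of 22812 over all genes), with a median of 0.70 and 0 calls (limma, 19 at an unadjusted p under 0.05). But in deposited TPM 1 of 75 was higher (2293 of 19206 over all genes), with a median of -0.79. Their summed level was 7152, 8089 and 6247 TPM in drought and 3105, 2786 and 7088 TPM in control, so control 3 stood at the level of drought. Without control 3, 35 of the 75 rose, where 12.6% of all genes rose. WRKY factors (74 tested, median 0.05 but -1.10 to -0.20 under the other scalings, 13 at an unadjusted p under 0.05), jasmonate genes (36 tested, median -0.33, 10 at an unadjusted p under 0.05) and cell wall loosening genes (21 tested, median -0.01, 5 at an unadjusted p under 0.05) also had 0 calls in limma. WRKY mRNA summed to 4158, 2011 and 2791 TPM in drought and to 931, 902 and 6409 TPM in control, and control 3 was the highest of the 6 libraries.

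**Figure D5:**
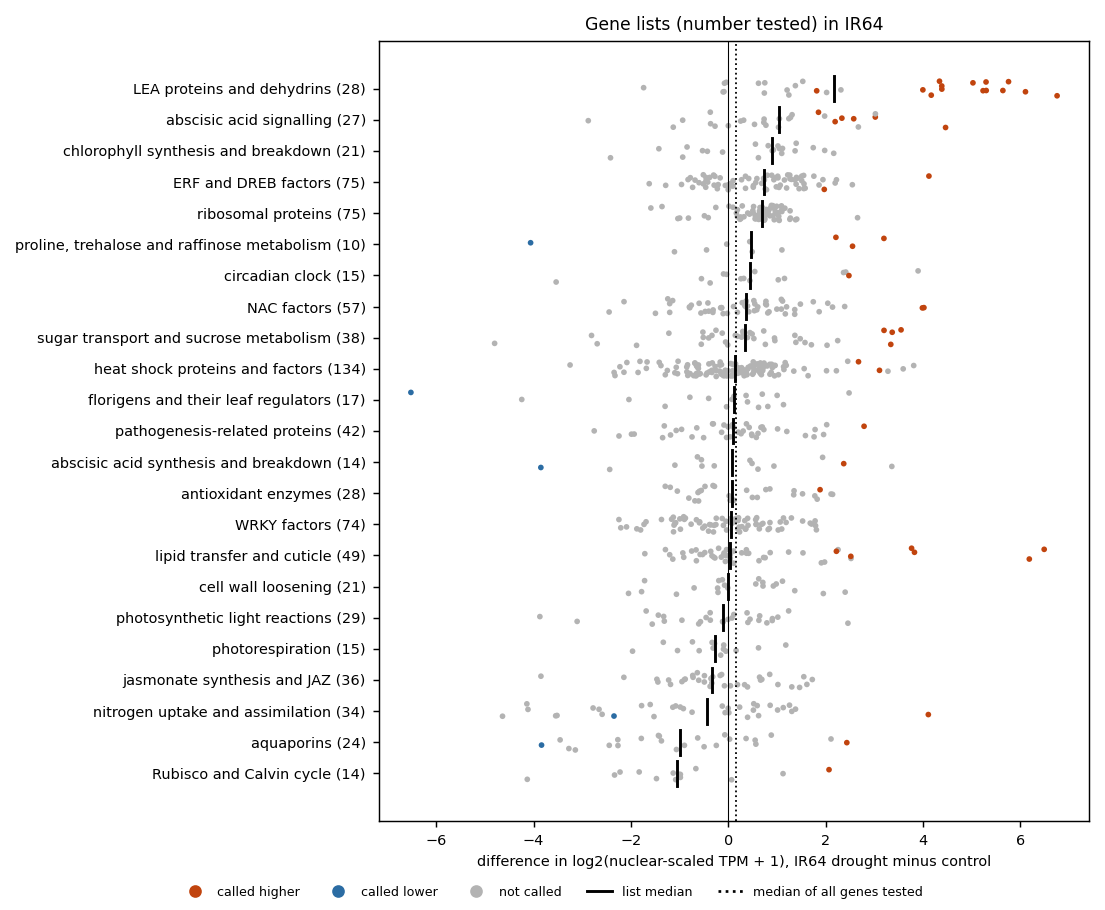
Difference of IR64 drought minus control in log2(nuclear-scaled TPM + 1) for each tested member of the 23 gene lists, ordered by list median; red and blue points are genes called higher and lower, black bars are list medians and the dotted line is the median of all genes tested, 0.16. The LEA list has the most calls, 14, and the highest median, 2.17; medians near 0 can change sign with the scaling.

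The drought difference of IR64 was also set against that of APO, in which 2 drought and 2 control libraries were fitted. The difference between cultivars was called in 1183 genes (5.19%), higher in IR64 in 832 and lower in 351. The count rests on which APO libraries are kept: leaving out APO drought 2 or 3 gave 143 or 2139, leaving out the first or the second APO control gave 15 or 47, and the count was 0 with all 12 libraries (limma, 2789 at an unadjusted p under 0.05). Without 1 IR64 library it was 218 to 4633. Among the 255 rises of IR64, 46 were called, 35 of them with a smaller rise in IR64 than in APO, and among its 70 falls 4 were called. The comparisons share the IR64 libraries, so these counts are not separate from the calls. Of 28 LEA genes 10 were called, all with the lower difference in IR64, and the list median was 2.17 in IR64 and 6.26 in APO. Rab16A was not among them: its rise was 6.76 ± 0.89 in IR64 and 10.10 ± 1.09 in APO, and the difference of -3.34 ± 1.41 did not pass (adjusted p = 0.173). Of the 29 light reaction genes 15 were called, all with the higher difference in IR64, where the list median was -0.11 against -3.32 in APO. ONAC007 rose in IR64 with a difference of -0.07 in APO, but the test of the difference between cultivars did not pass (adjusted p = 0.0718).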

How the data were processed

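The authors deposited a gene table for each library with coverage (a signal unit, mean read depth per base), FPKM and TPM. Tools named in the notes of the submitters on processing are StringTie 1.3.4, HISAT2 2.1.0 and DESeq2 2.11.38, without what each was used for, and the genome build is not given in the sources used here. The deposited TPM values were rescaled to sum to 1000000 over 37849 nuclear loci, without rRNA and organelle genes. The deposited FPKM values and the deposited coverage signal served only for the depth index.

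Differences were fitted with limma 3.58.1 (R 4.3.3, intensity trend, two-sided moderated test) on log2(TPM + 1), pseudocount 1, with a mean for each of 4 groups. The fit held 10 libraries, those with at least 10% of TPM on nuclear loci, and genes with a mean of at least 1 (22812). P-values were adjusted by Benjamini-Hochberg over all of them and called at 0.05. The steps were tested on simulated data. Tables and figures used Python 3.11.15, pandas 2.3.3, numpy 2.4.6 and matplotlib 3.10.9.

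Genes were named by a rule: the 12 largest called differences in each direction among genes with a symbol and groups that do not overlap, up to 4 called members of each list by smallest p, a fixed set (Rab16A, HD3A, CCA1, LHY, OsRcaII, BOR2, OsProDH, P5CS and NCED genes), and the 5 largest gaps between control 3 and the other controls. One gene of the fixed set is not reported here. Others are said to be named after their values were seen. The 23 lists were matched by symbol among 9826 nuclear loci with one, so members without a symbol are missed. Symbols judged not to belong to a list were removed, among them those of some PP2C phosphatases. Those of trehalose synthases (OsTPS) were removed after values were seen. The lists, the 10 libraries and the scaling were chosen with earlier results of these data known. Members are not independent of those results. Alternatives were no filter or a filter at 5, a pseudocount of 0.1, deposited TPM, median-of-ratios and quantile scaling, 6 or 12 libraries, library weights, a replicate block and leaving out each library.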

Additional observations from a re-analysis of the deposited data

Results flagged for a closer look

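Named genes in which the drought difference of IR64 minus that of APO passed its test (limma, adjusted over all genes) are given here with the APO libraries of the fit, 2 per group. With all 12 libraries 0 such differences were called (limma, 2789 at an unadjusted p under 0.05). The difference was -4.64 ± 0.95 for OsLEA16 (Os03g0168100; adjusted p = 0.0269), which had 1672 and 1002 TPM in APO drought and 0 and 1.53 TPM in APO control. It was -4.74 ± 0.88 for RAB21 (Os11g0454000; adjusted p = 0.0206), with 1121 and 1104 TPM in APO drought and 0 and 2.98 TPM in APO control. It was -5.35 ± 0.70 for HSP70 (Os03g0277300; adjusted p = 0.00763), with 1333 and 2024 TPM in APO drought and 4.57 and 6.12 TPM in APO control. In these 3 genes drought raised the mRNA in both cultivars and less in IR64. OsNCED2 (Os12g0617400), not called in IR64, rose in APO to 55.7 and 41.3 TPM in drought, against 2.44 and 2.07 TPM in control, and the difference was -4.20 ± 0.94 (adjusted p = 0.0344).

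In the other genes the difference was higher in IR64. OsSOD4 (Os08g0561700) rose in IR64 and fell in APO, where it had 101 and 83.5 TPM in drought and 431 and 374 TPM in control (4.01 ± 0.57, adjusted p = 0.00955). The APO libraries left out of the fit differed from these, with 721 TPM of OsSOD4 in APO drought 1 and 631 TPM in APO control 3. OsLTPd8 (Os05g0160300) differed by 4.02 ± 0.70 (adjusted p = 0.0164), SUS1 (Os03g0401300) by 4.46 ± 0.93 (adjusted p = 0.0277) and OsPIP2 (Os04g0233400) by 2.34 ± 0.54 (adjusted p = 0.038). Those 3 rose in IR64 and were not called in APO, with APO differences of -1.50, -1.09 and 0.10. OsLTPd8 had 124 TPM in APO drought 1 and 56.8 TPM in APO control 3, both left out, against 3.47 and 12.6 TPM in the fitted APO drought libraries and 20.1 and 22.1 TPM in the fitted APO control libraries. In OsLEA16, RAB21 and HSP70 the APO libraries left out were also far from the fitted ones, with 44.6, 21.6 and 29.8 TPM in APO drought 1 and 17.9, 19.3 and 32.6 TPM in APO control 3. OsNCED2 (Os12g0617400) was at 0 in APO drought 1 and at 11.2 TPM in APO control 3. Amt (Os04g0623800) fell in both, further in APO (3.34 ± 0.77, adjusted p = 0.0368). Of these, OsSOD4 and Amt are the ones in which IR64 control 3 did not agree, as in OsNCED2.

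The share of rRNA, which entered no gene comparison, averaged 66.99% of TPM in IR64 drought and 6.46% in IR64 control, and the ranges (53 to 84.9% and 0.487 to 16.2%) did not overlap. Its part in the gene results was not tested.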

How the results depend on the processing

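The 255 rises, 70 falls and 1183 differences between cultivars depended on the settings, and the cause was not tested unless stated. In that order the counts were 90, 30 and 578 with a pseudocount of 0.1 and 75, 24 and 609 with no filter (35168 genes tested). With library weights they were 4729, 1736 and 5292. With all 12 libraries they were 1, 1 and 0 (limma, 2789 differences between cultivars at an unadjusted p under 0.05), and with the 6 IR64 libraries 2 and 1. Deposited TPM gave 220, 1033 and 521, median-of-ratios scaling 57 rises, quantile normalization 144 rises, and genes above 0 in all 6 IR64 libraries 39 falls. The median of all genes was 0.16, and -0.93 in deposited TPM, -0.21 with median-of-ratios and -0.07 with quantile scaling. The other counts under these settings, and those with a filter at 5, stayed within 1.5 times.

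With 1 library left out the rises ranged from 41 to 2861, the falls from 5 to 1051 and the differences between cultivars from 15 to 4633. Leaving out control 3 gave the highest of each, and drought 2 (rises), control 2 (falls) and APO control 1 (differences between cultivars) the lowest. Except for IR64 drought 1, leaving out any of the fitted libraries moved both counts of IR64 by over 1.5 times: for rises and falls 124 and 13 without control 1, 57 and 5 without control 2, 41 and 23 without drought 2, 67 and 17 without drought 3, 126 and 28 without APO control 1, 128 and 27 without APO control 2, 108 and 31 without APO drought 2, and 59 and 25 without APO drought 3. Leaving out any of the 10 libraries moved the differences between cultivars by over 1.5 times. Where 1 library was left in an APO group, it was assumed to vary like the other groups.

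The deviations of same-numbered IR64 drought and control libraries from their group means correlated at -0.165, 0.034 and 0.009. With 3 libraries per group these values cannot show whether the libraries were paired. A fit with the replicate block gave 115 rises, 47 falls and 1318 differences between cultivars. Of 64 named genes tested, 53 were called. OSINV3, not called, passed without control 3 (-3.25), and its direction reversed without control 1 (0.76), control 2 (0.86) and drought 3 (0.52), and that of OsNCED2 (Os12g0617400) without control 2 (0.13). Depth in reads is unknown, so a value of 0 in the shallow drought libraries sets no limit on a level.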
